A study of Homo sapiens with 46 samples.

Results

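CNN3, FCF1, FAT1, FAR1, NAP1L4 and DCK are 6 genes picked for the largest exon changes after the antisense oligonucleotide ASO-1570, and every splicing event assigned to them was followed in all 4 experiments together with their gene counts. They hold 235 distinct events of 298384 in the whole series, and 6 of the 16725 genes with any event. FCF1 has 53 of the events, NAP1L4 71, FAT1 48, FAR1 39, DCK 15 and CNN3 9. Of the 235 events, 168 are cassette exons, 40 mutually exclusive exons, 13 alternative 3' splice sites, 14 alternative 5' splice sites and 0 retained introns. Because the genes were picked on the ASO-1570 values, each of their values from an ASO-1570 contrast is given as a description with no test. Tests are given for the siRNA experiment, which the choice did not use.

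The study sequenced RNA from 46 samples in 14 groups. MDA-MB-231 cells, a human breast carcinoma line, and U87MG cells, a human glioblastoma line, were transfected with ASO-1570, which targets TRA2B, or with a control ASO at 200 nM or at 50 nM. The same lines were transfected at 10 nM with an siRNA against TRA2B or with a control siRNA, and RNA was taken 48 h after transfection. Breast tumours grown as patient-derived xenografts (PDX) in mice that the labels call immunocompetent received ASO-1570 or control ASO into the tumour at 50 mg/kg, 3 times a week for 4 weeks. The cell line groups hold 3 libraries each and the PDX groups 5 each. No label says whether the libraries of a cell line group are separate cultures, so each p-value measures the spread between these libraries, which may be technical.

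TRA2B is an SR-like splicing factor that binds GAA-rich stretches in exons and mostly favours their inclusion. The percent spliced in (PSI) of an event is the share of reads that include the exon or the longer form, from 0 for full skipping to 1 for full inclusion. CNN3 encodes acidic calponin, an actin-binding protein, and FCF1 encodes a nucleolar protein of the small subunit processome that is needed for 18S ribosomal RNA processing. FAT1 encodes an atypical cadherin, a large cell surface adhesion receptor. FAR1 encodes a peroxisomal fatty acyl-CoA reductase that makes fatty alcohols for ether lipids, NAP1L4 a histone chaperone, and DCK the deoxycytidine kinase that starts the salvage of deoxynucleosides.

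Total counts per library ran from 259.9 M to 356.8 M at 200 nM, from 78.6 M to 112.8 M at 50 nM, from 75.0 M to 111.1 M in the siRNA experiment and from 75.3 M to 109.6 M in the PDX tumours. TRA2B, the target, averaged 22.2 ± 0.733 CPM (counts scaled to a common library size with TMM factors) with TRA2B siRNA and 192 ± 5.48 with control siRNA in MDA-MB-231 cells, and 25.5 ± 3.05 against 181 ± 6.17 in U87MG cells (SD, n = 3 each). With ASO-1570 the fold of TRA2B against control ASO ran from 0.458 to 0.589 in the cell lines, and was 0.896 with overlapping groups in the PDX tumours. TRA2A, the paralog of TRA2B, had a fold of 1.56 to 2.74 with ASO-1570 in the cell lines and 0.967 in the PDX tumours, and rose with TRA2B siRNA by a fold of 2.07 in MDA-MB-231 and 2.92 in U87MG cells (edgeR adjusted p 2.1e-07 and 3.08e-09). The summed level of 7 breast epithelial markers was 1140 to 3250 CPM in MDA-MB-231 libraries and 1210 to 3010 CPM in PDX tumours, against 5.72 to 11.3 CPM in U87MG libraries. Within that list ESR1 reached at most 0.254 CPM in MDA-MB-231 and 0.0186 CPM in the PDX, and CDH1 at most 9.46 CPM in MDA-MB-231. The summed level of the mesenchymal markers VIM, CDH2, FN1 and ZEB1 was 3280 to 4900 CPM in MDA-MB-231 and 8950 to 15500 CPM in U87MG libraries. In the PDX tumours it was 118 to 501 CPM. U87MG lacked most glial markers: SOX2, S100B and AQP4 reached at most 0.0995, 0.178 and 0.0111 CPM and GFAP 2.45 CPM, whereas NES reached 44.7 CPM and OLIG2 3.35 CPM. In MDA-MB-231 libraries NES reached 40.1 CPM and GFAP 3.53 CPM, so NES and GFAP did not set the lines apart. The labels of the MDA-MB-231 libraries at 50 nM and with siRNA name the line but give a glioblastoma cell type; these libraries carry the epithelial marker levels given for MDA-MB-231.

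The lead event of each gene was taken from its events with a PSI in at least 2 libraries of each group in all 4 cell line ASO-1570 comparisons, as the one with the largest absolute mean of the 4 differences. An event without values in all 4 could not be a lead event, however large its difference. Exons of 5 of the genes that these and the related events turn on are shown 5' to 3' in the direction of the transcript, from GENCODE v29 transcripts on GRCh38, with every GAA in capitals because GAA is the core of the motif that TRA2B binds. The CNN3 exon is 138 bases long at chr1:94902121-94902258 on the minus strand. The FCF1 exon is shown in its coding form of 68 bases at chr14:74713485-74713552 on the plus strand. The FAT1 exon has 36 bases at chr4:186590368-186590403 on the minus strand, the FAR1 exon 68 bases at chr11:13712966-13713033 on the plus strand, and the NAP1L4 exon of 30 bases lies at chr11:2951780-2951809 on the minus strand.
CNN3 138-base exon: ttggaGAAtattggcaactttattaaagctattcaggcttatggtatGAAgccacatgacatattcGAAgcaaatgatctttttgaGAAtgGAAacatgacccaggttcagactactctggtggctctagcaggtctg
FCF1 68-base exon form: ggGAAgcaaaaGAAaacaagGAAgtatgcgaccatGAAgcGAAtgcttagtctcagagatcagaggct
FAT1 36-base exon: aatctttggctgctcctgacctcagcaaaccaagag
FAR1 68-base exon: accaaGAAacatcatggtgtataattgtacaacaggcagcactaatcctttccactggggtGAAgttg
NAP1L4 30-base exon: tttGAAGAAggtGAAGAAggaGAAgaggag

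Of the exons shown, the FCF1 form and the NAP1L4 exon held the most GAA per 100 bases, and the FAT1 exon held none. The FCF1 form of 68 bases holds 5 GAA, or 7.35 per 100 bases, against a median of 2.7 in cassette exons of similar length. The NAP1L4 exon of 30 bases holds 5 GAA, or 16.7 per 100 bases against a median of 2.78, and 2 copies of GAAGAA, which 5.53% of similar exons hold at all. The CNN3 exon has 3.62 GAA per 100 bases against a median of 2.21, and the FAR1 exon 2.94 against 2.7. Other exons of the same genes lay above or below their medians. The FCF1 lead form of 136 bases has 4.41 against a median of 2.24. In NAP1L4 the lead exon of 50 bases has 4.0 against 2.22 and the exon of 110 bases 5.45 against 1.98. In FAT1 the exon of 138 bases at chr4:186595689-186595826 has 3.62 against 2.21, that of 220 bases 1.82 against 2.18 and that of 191 bases 2.09 against 2.11. In FAR1 the exon of 45 bases holds no GAA against a median of 2.33, and the exon of 128 bases has 2.34 against 2.26. Both motifs were counted on the transcript strand only, with overlapping matches allowed; a match is a description of the letters and shows no binding.

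Over the events of the 6 genes together, the shift with ASO-1570 was wide in U87MG cells and narrower in MDA-MB-231 cells. An event was counted as past the rule when the mean PSI differed by 0.10 or more and the libraries of the groups did not overlap. At 200 nM, 44 of 182 events passed in U87MG cells, 17 higher and 27 lower with ASO-1570, where 11.2% of all events passed, 3.34% higher and 7.85% lower. In MDA-MB-231 cells 21 of 182 passed, 10 higher and 11 lower, where 4.06% of all events passed, 1.31% higher and 2.75% lower. At 50 nM, 34 of 127 events passed in U87MG cells against 10.0% of all events, and 17 of 127 in MDA-MB-231 cells against 3.31%. The genes were chosen on these contrasts, so nothing is read from the excess. With TRA2B siRNA, 2 of 112 events with values passed in U87MG cells and 3 of 124 in MDA-MB-231 cells, where 1.75% and 1.85% of all events passed. The siRNA counts lie at about the share of all events. In MDA-MB-231 cells the events were the FCF1 forms of 136 and 23 bases and a NAP1L4 exon of 84 bases, which had a value in only 2 libraries of each group and differed by -0.27. In U87MG cells they were the FCF1 form of 23 bases, lower, and the FAT1 exon of 36 bases between its neighbouring exons, higher. In the PDX tumours 0 of 68 events passed, where 0.502% of all events did. Their largest differences, 0.282 in a FAR1 event of mutually exclusive exons and 0.238 in a NAP1L4 exon of 98 bases, came with overlapping groups.

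The typical event of these genes moved little. The median size of the PSI difference with ASO-1570 at 200 nM was 0.024 over the members and 0.016 over all events in U87MG cells, and 0.012 against 0.009 in MDA-MB-231 cells. With siRNA it was 0.004 over the members against 0.008 over all events in U87MG cells, and 0.003 against 0.007 in MDA-MB-231 cells. At the far end, 12 events at 200 nM in U87MG cells and 10 in MDA-MB-231 cells differed by 0.50 or more without overlap. The share of all events past that size was 1.03% in U87MG cells and 0.368% in MDA-MB-231 cells.

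In CNN3 the exon was included almost fully with ASO-1570, and the low values sat in the control ASO libraries. The exon of 138 bases had a PSI of 0.998, 0.997 and 0.998 with ASO-1570 at 200 nM in MDA-MB-231 cells, against 0.244, 0.224 and 0.257 with control ASO. In U87MG cells at 200 nM it had 1, 1 and 1 with ASO-1570, against 0.235, 0.205 and 0.182 with control ASO. The ASO-1570 libraries were all close to full inclusion and the control ASO libraries all far below it. At 50 nM the MDA-MB-231 values were 0.997, 0.999 and 0.999 with ASO-1570, against 0.289, 0.263 and 0.329 with control ASO. The U87MG values at 50 nM were 0.997, 0.999 and 0.999 with ASO-1570, against 0.315, 0.232 and 0.259 with control ASO. The differences were 0.756 and 0.793 at 200 nM and 0.705 and 0.73 at 50 nM in MDA-MB-231 and U87MG cells, and no library of either group came near the other.

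Outside the control ASO libraries of the cell lines, the CNN3 exon was included almost fully everywhere. With TRA2B siRNA the PSI was 0.996, 0.995 and 0.996 in MDA-MB-231 cells, against 0.998 in each of the 3 control siRNA libraries. This difference of -0.002 had an exact two-sided permutation p of 0.1, the smallest that 3 against 3 libraries can give. In U87MG cells it was 0.997, 1 and 1 with TRA2B siRNA, against 1 in each of the 3 control siRNA libraries (exact permutation p = 1.0). The 5 PDX tumours with ASO-1570 ranged from 0.997 to 1 with a median of 1, and the 5 with control ASO from 0.98 to 1. Ordered by mean PSI, the 4 cell line control ASO groups came lowest at 0.207 to 0.294, and neighbours among them differed by less than the sum of their SDs. A gap of 0.698 then led to the other 10 groups, which lay between 0.992 and 1. These groups come from tables deposited separately, so the order across experiments was not tested. GENCODE v29 has 4 transcripts with the exon, 3 of them coding, and 1 transcript that skips it; its length is a multiple of 3.

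**Figure D1:**
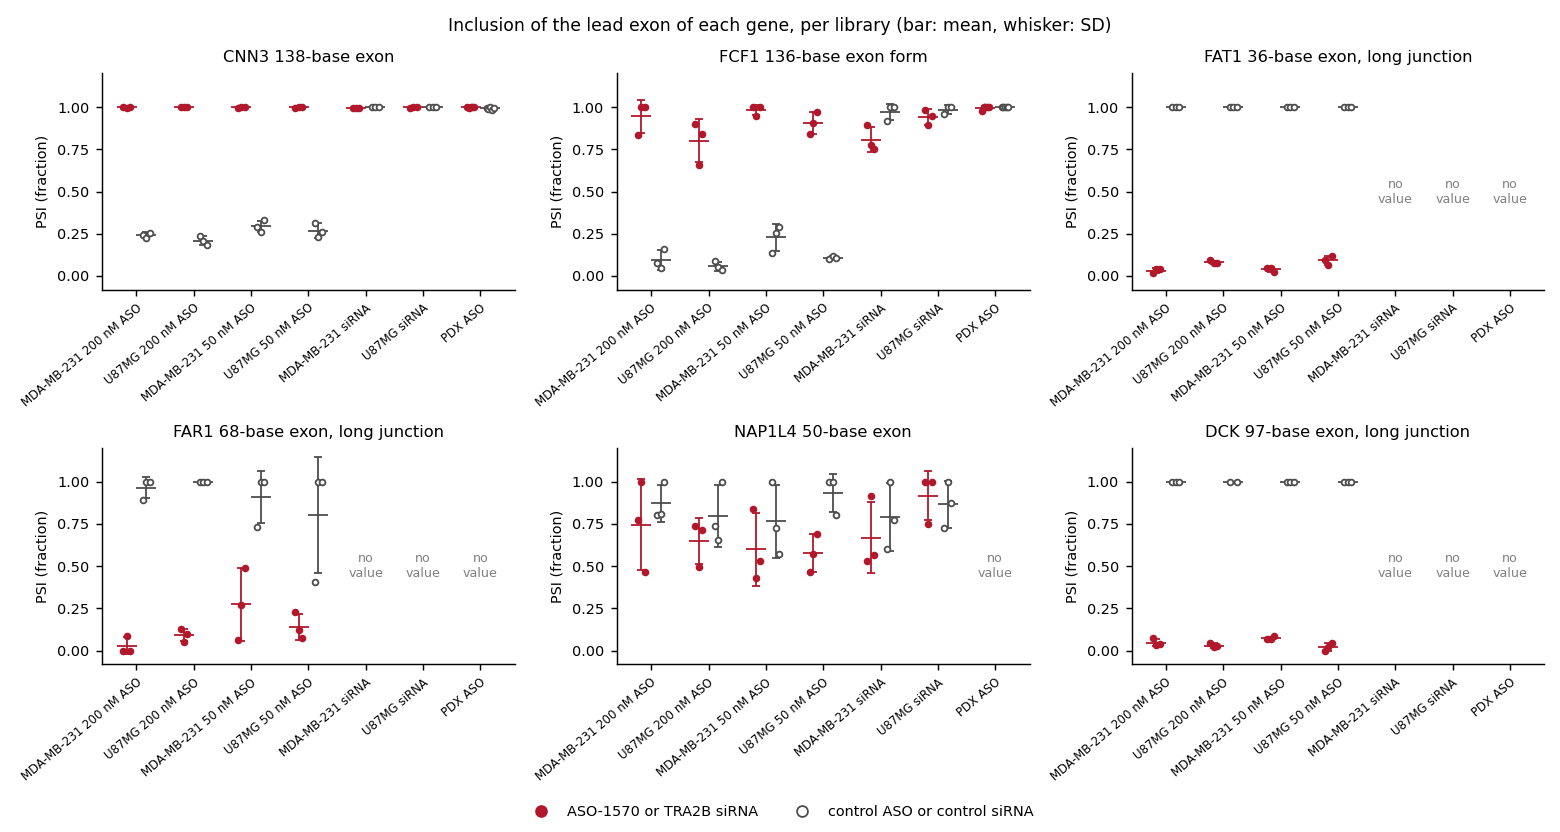
PSI (fraction) of the lead event of each gene, with ASO-1570 or TRA2B siRNA as filled points left of control ASO or control siRNA as open points, in the 7 comparisons; each point is a library, bars are means and whiskers SDs. The CNN3 control ASO libraries lie between 0.182 and 0.329 while all siRNA and PDX libraries lie above 0.97, and the FAT1, FAR1 and DCK lead events have no value in the siRNA and PDX experiments.

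The FCF1 lead event had a higher PSI with ASO-1570 than with control ASO in both lines, and its low values were those of the control ASO libraries. The lead event is the form of 136 bases, chr14:74713485-74713620, joined to the first exon upstream and the exon of 72 bases downstream. With 200 nM ASO-1570 its PSI was 0.832, 1 and 1 in MDA-MB-231 cells, against 0.077, 0.05 and 0.162 with control ASO. In U87MG cells at 200 nM it was 0.901, 0.656 and 0.842 with ASO-1570, against 0.087, 0.055 and 0.034 with control ASO. The groups were far apart in both lines. At 50 nM the MDA-MB-231 libraries had 1, 0.948 and 1 with ASO-1570, against 0.139, 0.257 and 0.29 with control ASO. The U87MG libraries at 50 nM had 0.841, 0.908 and 0.969 with ASO-1570, against 0.103, 0.119 and 0.105 with control ASO. The 4 differences ran from 0.741 to 0.848. By group means the 4 cell line control ASO groups lay at 0.059 to 0.229 and the other 10 groups at 0.8 to 1. As for CNN3, the order across separately deposited tables was not tested. Of all 39 FCF1 events with values in U87MG cells at 200 nM, 11 passed with a higher and 2 with a lower PSI. Of all events in that comparison, 3.34% passed higher and 7.85% lower. FCF1 was chosen on these contrasts, so nothing is read from the excess.

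With siRNA the FCF1 form of 136 bases had a PSI of 0.891, 0.778 and 0.754 with TRA2B siRNA in MDA-MB-231 cells, against 0.918, 1 and 1 with control siRNA. The U87MG libraries had 0.981, 0.893 and 0.949 with TRA2B siRNA, against 0.956, 1 and 1 with control siRNA. The groups did not overlap in MDA-MB-231 cells (difference -0.165, exact permutation p = 0.1) and did in U87MG cells (-0.044, exact permutation p = 0.2). Averaged over both lines, the difference was -0.105 ± 0.0275 (SE) with a limma adjusted p of 0.131 over all 52392 events tested, which misses the threshold of 0.05. It passed only when replicate 1 of the MDA-MB-231 TRA2B siRNA libraries was left out (-0.126, adjusted p 0.0483). In the PDX tumours every library had a PSI of 0.976 to 1.

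The shorter forms of the FCF1 exon moved alongside. The form of 68 bases averaged 0.999 with ASO-1570 and 0.807 with control ASO in MDA-MB-231 cells at 200 nM, and 0.989 against 0.623 in U87MG cells. The 50 nM means were 0.999 against 0.862 in MDA-MB-231 cells and 0.994 against 0.697 in U87MG cells. With siRNA its differences were -0.01 in MDA-MB-231 and -0.003 in U87MG cells (exact permutation p = 0.1 and 0.2). The 3 forms share the 3' splice site, so their values are not independent, and 1 value is not further evidence for another.

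The FCF1 form of 23 bases, the first 23 letters of the sequence shown, spread widely between replicates. It had a PSI of 0.464 and 1 in the 2 MDA-MB-231 libraries with a value at 200 nM ASO-1570, against 0.003, 0.018 and 0.031 with control ASO. In U87MG cells it had 0.464, 0.238 and 0.565 with ASO-1570, against 0.024, 0.004 and 0.019 with control ASO. The groups did not overlap, although the ASO-1570 libraries of a line differed widely among themselves. The 50 nM means were 0.821 with ASO-1570 against 0.05 with control ASO in MDA-MB-231 cells and 0.674 against 0.037 in U87MG cells. With siRNA it had 0.126, 0.358 and 0.198 with TRA2B siRNA in MDA-MB-231 cells, against 0.464, 1 and 1 with control siRNA. The U87MG libraries had 0.776, 0.693 and 0.669 with TRA2B siRNA, against 0.839, 1 and 1 with control siRNA. These groups did not overlap in either line (-0.594 and -0.234, exact permutation p = 0.1 each), and the average of -0.414 ± 0.0927 (SE) had a limma adjusted p of 0.0771. It passed only without replicate 1 of the MDA-MB-231 control siRNA libraries (-0.503, adjusted p 0.00677). The value 0.464 recurred in 4 libraries; the reads behind each PSI are not given in the tables, so its depth is unknown.

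The first exon of FCF1 has an extension of 59 bases, chr14:74713201-74713259. Its mean PSI was 0.667 with ASO-1570 against 0.304 with control ASO in MDA-MB-231 cells at 200 nM, with overlap, and 0.321 against 0.328 in U87MG cells. At 50 nM the groups stood apart, with 0.937 against 0.283 in MDA-MB-231 cells and 0.655 against 0.348 in U87MG cells. With siRNA it was 0.292 against 0.806 in MDA-MB-231 and 0.415 against 0.83 in U87MG cells, with overlapping groups and an exact permutation p of 0.2 in each line. The average over both lines of -0.464 ± 0.16 (SE) did not pass (limma adjusted p 0.272).

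The FAT1 lead event scores the exon of 36 bases against a junction that runs from chr4:186596540-186596841 to chr4:186588392-186589220. With 200 nM ASO-1570 the PSI was 0.015, 0.041 and 0.041 in MDA-MB-231 cells and 0.093, 0.074 and 0.076 in U87MG cells, against 1 in all 6 control ASO libraries. With 50 nM ASO-1570 it was 0.05, 0.047 and 0.023 in MDA-MB-231 cells and 0.094, 0.067 and 0.121 in U87MG cells, against 1 in all 6 control ASO libraries. A PSI of 1 here says that no skipping reads of this junction were scored, and says nothing of how often the exon is used. No annotated transcript has the junction, which spans up to 3 exons of a coding transcript.

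The same FAT1 exon of 36 bases was rare between its neighbouring exons in both groups. There its PSI averaged 0.018 with ASO-1570 and 0.018 with control ASO in MDA-MB-231 cells at 200 nM, and 0.169 against 0.141 in U87MG cells. At 50 nM it averaged 0.014 against 0.019 in MDA-MB-231 cells and 0.156 against 0.175 in U87MG cells. Scored against a skip from the exon of 111 bases, it had 0.02 with ASO-1570 against 0.593 with control ASO in MDA-MB-231 cells at 200 nM, and 0.118 against 0.945 in U87MG cells. The large differences thus appeared where the exon was scored against long skipping junctions. The exon of 138 bases at chr4:186595689-186595826 was also scored against the long junction of the lead event. There it had a PSI of 0.846 with ASO-1570 and 1 with control ASO in MDA-MB-231 cells at 200 nM. In U87MG cells it had 0.475 against 1. The differences were -0.154 in MDA-MB-231 and -0.525 in U87MG cells at 200 nM, and -0.08 and -0.476 at 50 nM. The U87MG differences were the larger at each dose; the difference between lines was not tested.

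Other FAT1 exons had a lower PSI with ASO-1570 as well. The exon of 220 bases at chr4:186628145-186628364 had a mean PSI of 0.894 with ASO-1570 against 1 with control ASO in MDA-MB-231 cells at 200 nM, and 0.642 against 1 in U87MG cells. The 50 nM means were 0.922 against 1 in MDA-MB-231 cells and 0.651 against 1 in U87MG cells. An exon of 191 bases, scored against a long junction at 50 nM only, had 0.118 against 1 in MDA-MB-231 and 0.014 against 1 in U87MG cells. With siRNA that exon was scored between other exons, at a difference of 0.004 in MDA-MB-231 cells (limma adjusted p 0.988). At 50 nM in U87MG cells 16 of 36 FAT1 events passed the rule, 14 with a lower PSI, where 6.94% of all events did, and 2 with a higher PSI. The 2 higher ones were events of mutually exclusive exons, at 0.122 and 0.12. Many of them share an exon or a junction, so they are not separate findings.

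With siRNA, a single FAT1 event stood apart between groups. Between its neighbouring exons the exon of 36 bases had a PSI of 0.367, 0.366 and 0.319 with TRA2B siRNA in U87MG cells, against 0.233, 0.223 and 0.284 with control siRNA. The groups did not overlap (0.104, exact permutation p = 0.1), while the limma test over all events gave an adjusted p of 0.663. In MDA-MB-231 cells the means were 0.016 against 0.014 (exact permutation p = 0.9). The difference between the lines was -0.102 ± 0.0259 (SE) and did not pass (limma adjusted p 0.493). The exon of 138 bases from the exon of 111 bases, which with ASO-1570 at 200 nM had a difference of -0.307 in MDA-MB-231 and -0.596 in U87MG cells, differed by 0.002 in each line with siRNA (exact permutation p = 1.0) and by 0.006 in the PDX tumours.

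The FAR1 lead event likewise scores its exon against a junction absent from the annotation, from chr11:13707900-13708079 to chr11:13721730-13721859. The PSI was 0, 0.089 and 0 with ASO-1570 at 200 nM in MDA-MB-231 cells, against 0.892, 1 and 1 with control ASO. The U87MG libraries were at 0.129, 0.054 and 0.096 with ASO-1570, against 1 in all 3 control ASO libraries. At 50 nM it was 0.061, 0.27 and 0.49 with ASO-1570 in MDA-MB-231 cells, against 0.733, 1 and 1 with control ASO. The groups stayed apart, though the ASO-1570 libraries were uneven. In U87MG cells at 50 nM it was 0.227, 0.121 and 0.075 with ASO-1570, against 0.407, 1 and 1 with control ASO, where replicate 1 of the controls was low.

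Between its neighbouring exons the FAR1 exon of 68 bases was almost always included. Its mean PSI was 0.991 with ASO-1570 against 1 with control ASO in MDA-MB-231 cells at 200 nM, and 0.978 against 1 in U87MG cells. The exon of 178 bases, scored against the long junction, had 0.97 against 1 in MDA-MB-231 cells and 0.91 against 1 in U87MG cells. At 200 nM the difference of the lead event was -0.934 in MDA-MB-231 and -0.907 in U87MG cells, and that of these events -0.09 at most. A shorter exon of 45 bases, chr11:13711764-13711808, differed more by that junction at 200 nM, where 2 control ASO libraries of each line had a value. Its mean PSI was 0.14 with ASO-1570 against 0.803 with control ASO in MDA-MB-231 cells and 0.214 against 1 in U87MG cells. The exon of 128 bases at chr11:13711928-13712055 had 0.92 with ASO-1570 against 0.982 with control ASO in MDA-MB-231 cells and 0.791 against 0.997 in U87MG cells. With TRA2B siRNA it had 0.98 against 0.986 in MDA-MB-231 cells and 0.996 against 0.999 in U87MG cells (exact permutation p = 0.7 and 1.0), and in the PDX tumours 1 against 0.988.

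**Figure D2:**
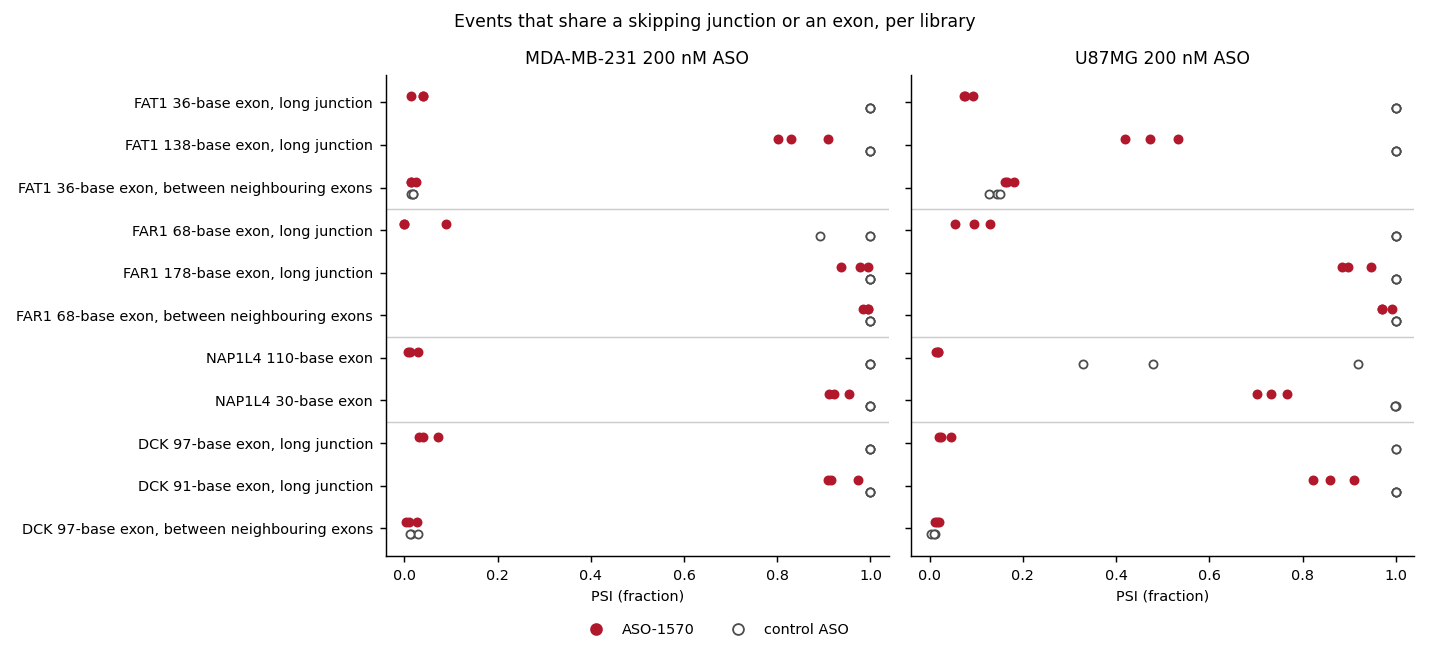
PSI (fraction) per library of events that share a skipping junction or an exon, with 200 nM ASO-1570 as filled points above control ASO as open points, in MDA-MB-231 cells (left) and U87MG cells (right). The FAT1 exon of 36 bases has a mean PSI of 0.032 with ASO-1570 against 1 with control ASO by the long junction in MDA-MB-231 cells, and 0.018 in both groups between its neighbouring exons.

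DCK followed the pattern of FAT1. Its exon of 97 bases had a PSI of 0.073, 0.032 and 0.039 with ASO-1570 at 200 nM in MDA-MB-231 cells and 0.046, 0.019 and 0.025 in U87MG cells, against 1 in each control ASO library with a value. At 50 nM it had 0.067, 0.068 and 0.085 in MDA-MB-231 cells and 0, 0.021 and 0.045 in U87MG cells with ASO-1570, against 1 in all control ASO libraries. Replicate 1 of the U87MG control ASO at 200 nM had no value. The long junction, from chr4:71025816-71025931 to the last exon, is in no annotated transcript. Between its neighbouring exons the exon of 97 bases had means of 0.013 with ASO-1570 against 0.019 with control ASO in MDA-MB-231 cells, and 0.015 against 0.008 in U87MG cells.

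The DCK exon of 91 bases, chr4:71026665-71026755, is present in 4 annotated transcripts and showed the smaller differences. Scored by the long junction at 200 nM, it had 0.932 with ASO-1570 against 1 with control ASO in MDA-MB-231 cells and 0.864 against 1 in U87MG cells. The 50 nM means were 0.953 against 1 in MDA-MB-231 cells and 0.909 against 1 in U87MG cells. From the exon of 148 bases upstream, the exon of 91 bases had 0.923 with ASO-1570 against 1 with control ASO in MDA-MB-231 cells at 200 nM, and 0.841 against 0.999 in U87MG cells. With siRNA, the exon of 97 bases between its neighbours had 0.016 against 0.012 in MDA-MB-231 cells and 0.003 against 0.004 in U87MG cells (exact permutation p = 0.6 and 0.8). The PDX means were 0.01 with ASO-1570 and 0.026 with control ASO.

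The NAP1L4 lead event showed no near-complete switch. This event is an exon of 50 bases at chr11:2988077-2988126. It had a PSI of 0.771, 1 and 0.466 with ASO-1570 at 200 nM in MDA-MB-231 cells, against 0.805, 0.809 and 1 with control ASO. In U87MG cells it had 0.739, 0.493 and 0.714 with ASO-1570, against 0.74, 0.652 and 1 with control ASO. The groups overlapped in both lines. At 50 nM in MDA-MB-231 cells they overlapped again, at 0.84, 0.428 and 0.529 with ASO-1570 against 1, 0.724 and 0.574 with control ASO. They stood apart only in U87MG cells at 50 nM, where the PSI was 0.466, 0.571 and 0.692 with ASO-1570 against 1, 1 and 0.805 with control ASO. With siRNA the differences were -0.121 in MDA-MB-231 and 0.052 in U87MG cells (exact permutation p = 0.5 and 0.7).

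At 200 nM the NAP1L4 event with the largest difference in either line was an exon of 110 bases at chr11:2954301-2954410, scored at 200 nM only. Its PSI was 0.03, 0.008 and 0.013 with ASO-1570 in MDA-MB-231 cells, against 1 in all 3 control ASO libraries. The U87MG libraries were at 0.017, 0.018 and 0.014 with ASO-1570, against 0.92, 0.33 and 0.479 with control ASO. The ASO-1570 libraries were alike and the U87MG controls were uneven. As for FAT1, a PSI of 1 says that no reads of the skipping junction were scored. It says nothing of how often the exon is used. The exon of 30 bases downstream, whose sequence holds the 2 GAAGAA copies, shares that skipping junction. Its mean PSI was 0.928 with ASO-1570 against 1 with control ASO in MDA-MB-231 cells at 200 nM, and 0.733 against 0.999 in U87MG cells. The 50 nM means were 0.958 against 1 in MDA-MB-231 cells and 0.777 against 1 in U87MG cells. With siRNA the means were 0.999 against 1 in MDA-MB-231 cells and 0.999 against 0.999 in U87MG cells (exact permutation p = 1.0 each).

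NAP1L4 had events that moved in either direction. Of 57 events with values at 200 nM in U87MG cells, 5 passed with a lower and 2 with a higher PSI. Of all events in that comparison, 7.85% passed lower and 3.34% higher, so these counts lie at about the general share. At 50 nM in U87MG cells, 2 of 33 passed with a lower and 2 with a higher PSI. There 10.0% of all events passed in either direction and 6.94% with a lower PSI. An exon of 69 bases at chr11:2989129-2989197 passed with opposite signs, at a difference of -0.349 in U87MG cells at 200 nM and 0.531 in MDA-MB-231 cells at 50 nM, where 2 control ASO libraries had a value. The longer form of 143 bases, chr11:2989129-2989271, joined to the exon at chr11:2991794-2992102, passed in U87MG cells with 0.177 at 200 nM and 0.157 at 50 nM. An event of mutually exclusive exons of 120 and 30 bases passed in U87MG cells with 0.12 at 200 nM and 0.112 at 50 nM.

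Across doses, differences past 0.10 at 200 nM were set beside those at 50 nM. Of 113 events with values at both doses in MDA-MB-231 cells, 22 differed by 0.10 or more at 200 nM and 16 of those also at 50 nM with the same sign. In U87MG cells 39 of 113 did so at 200 nM, and 30 of those at 50 nM. As shares these were 72.7% and 76.9%, where the same count over all events gave 43.7% in MDA-MB-231 and 65.4% in U87MG cells. The members were chosen for large differences, so nothing is read from the excess. The median size of the change between doses was 0.012 in MDA-MB-231 and 0.014 in U87MG cells. The doses were run in separate experiments with different depth, so a dose and its experiment cannot be told apart.

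Across agents, a like count was made for ASO-1570 and siRNA, but with differences of either sign. These counts therefore do not measure agreement in direction. In MDA-MB-231 cells, 97 events had values with both 200 nM ASO-1570 and siRNA, 19 differed by 0.10 or more with ASO-1570 and 6 of those also with siRNA. In U87MG cells the counts were 89, 30 and 3. As shares these were 31.6% in MDA-MB-231 and 10.0% in U87MG cells, where all events gave 37.2% and 25.5%. With 50 nM ASO-1570 in its place, 6 of 11 events past 0.10 were also past it with siRNA in MDA-MB-231 cells and 3 of 19 in U87MG cells. Those shares were 54.5% and 15.8%, where all events gave 40.2% and 26.4%; the differences between shares were not tested. Over the 19 events in MDA-MB-231 cells the siRNA differences ran from -0.594 to 0.143, and over the 30 in U87MG cells from -0.342 to 0.052. FCF1 supplied the largest of these siRNA differences, and in its forms of 136 and 23 bases the sign was opposite to that with ASO-1570 in both lines.

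The events most like the CNN3 and FCF1 lead events over the 12 cell line groups were sought among events with a PSI in all 36 libraries, by Pearson's r of the group means, as a description. The groups share treatments, tables and depth, so no p is given. For CNN3 the nearest was an exon of 41 bases in YY1AP1, chr1:155680416-155680456, with r = 0.998 among 7556 events. Its group means were 0.955 to 0.981 with ASO-1570 and 0.964 to 0.987 in the siRNA groups, against 0.398 to 0.514 with control ASO. The next was an exon of 152 bases in CEP128 with r = 0.994, at 0.96 to 0.998 with ASO-1570 against 0.67 to 0.73 with control ASO. For FCF1 the nearest was an exon of 81 bases in STXBP2, chr19:7643165-7643245, with r = 0.989, at 0.816 to 0.9 with ASO-1570 and 0.9 to 0.908 in the siRNA groups, against 0.155 to 0.307 with control ASO. These events were picked because their group means follow those of CNN3 or FCF1. Their low control ASO means come from that choice, and nothing is read from them. For NAP1L4 the nearest was an exon of 118 bases in ZNF337-AS1 with r = 0.946. The FAT1, FAR1 and DCK lead events lack values in the siRNA experiment and could not be compared in this way.

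Across the whole siRNA table, limma called 0 of 62184 events in MDA-MB-231 cells and 0 of 63623 in U87MG cells at an adjusted p below 0.05 and a difference of 0.10. At an unadjusted limma p below 0.05 and the same difference of 0.10 or more, 2503 and 2346 events passed, 4 of 34 member events and 2 of 29. Averaged over both lines, 314 of 52392 events were called, or 0.599%, 96 higher and 218 lower with TRA2B siRNA. With the replicate number as a block this count was 0. None of the 39 member events tested was called in that average, and 3 passed unadjusted, as did 1677 of all 52392 events. The line difference was called for 3 events, or 0.00573%, and for none of the 39 members. Unadjusted, 1 of the members passed, as did 1632 of all 52392 events.

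**Figure D3:**
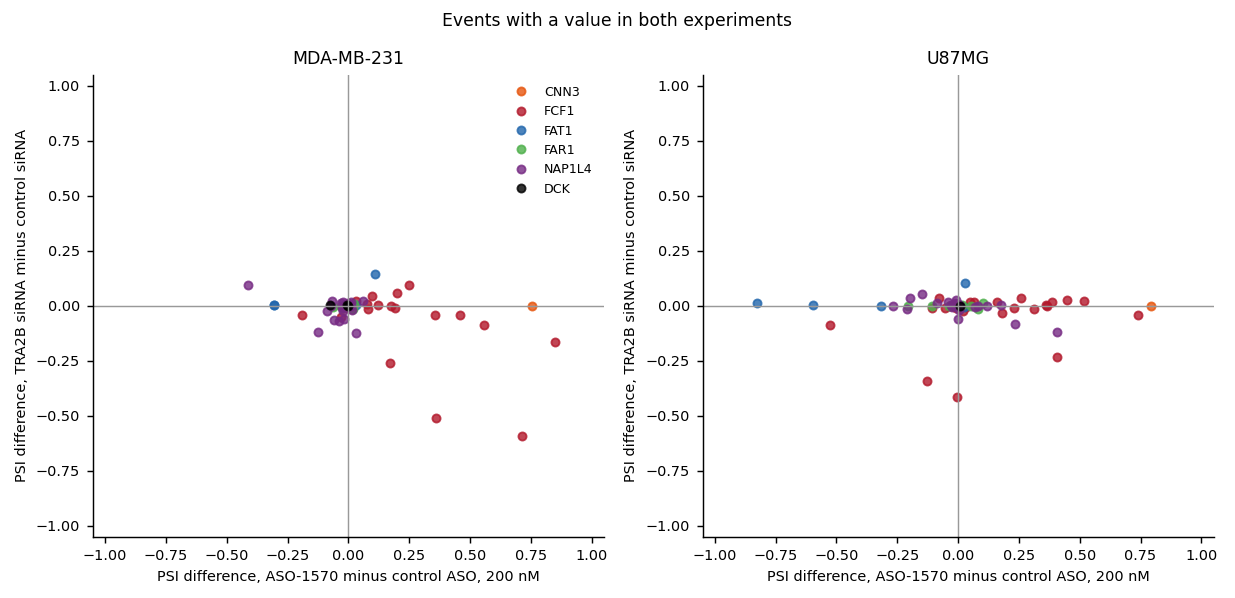
PSI difference with TRA2B siRNA minus control siRNA (vertical) against the difference with 200 nM ASO-1570 minus control ASO (horizontal) for each event of the 6 genes with a value in both, 97 in MDA-MB-231 cells (left) and 89 in U87MG cells (right); each point is an event, coloured by gene. Most points lie near 0 on the vertical axis, the CNN3 exon at 0.756 and 0.793 on the horizontal axis among them, and the points lowest on the vertical axis are FCF1 events.

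At the gene level FCF1 differed most in MDA-MB-231 cells. It had 25.7, 30.4 and 28.4 CPM with ASO-1570 at 200 nM in MDA-MB-231 cells, against 61.3, 67.3 and 67.8 CPM with control ASO, a log2 difference of -1.22. In U87MG cells it had 55.9, 65.6 and 56 CPM with ASO-1570, against 77.6, 78.1 and 74.7 CPM with control ASO, a log2 difference of -0.38. At 50 nM the log2 differences were -1.23 in MDA-MB-231 and -0.51 in U87MG cells, again without overlap. With TRA2B siRNA FCF1 averaged 84.3 ± 6.53 CPM against 88.8 ± 3.9 CPM in MDA-MB-231 cells (SD, n = 3 each; edgeR adjusted p 0.499). The U87MG means were 86.4 ± 4.68 against 90.8 ± 0.767 CPM (edgeR adjusted p 0.578). The PDX tumours averaged 35.8 ± 17 CPM with ASO-1570 and 26.9 ± 6 CPM with control ASO (SD, n = 5 each), with overlap.

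FAR1 was lower with ASO-1570 in all 4 cell line comparisons. At 200 nM it had 77.3, 52.6 and 85 CPM with ASO-1570 in MDA-MB-231 cells, against 96, 107 and 87 CPM with control ASO. The U87MG libraries had 85.9, 81.4 and 86.8 CPM, against 109, 114 and 110 CPM. The log2 differences were -0.43 in MDA-MB-231 and -0.39 in U87MG cells at 200 nM, and -0.13 and -0.38 in the same lines at 50 nM, each without overlap. With TRA2B siRNA in MDA-MB-231 cells it rose, at 149, 148 and 145 CPM against 129, 131 and 127 CPM with control siRNA. That log2 difference of 0.19 ± 0.0447 (SE) had an edgeR adjusted p of 0.0254, where 7.24% of all genes were called. The call was lost when any of 5 of the 6 libraries was left out (adjusted p 0.0606 to 0.112) and with no filter on low counts (adjusted p 0.104). In U87MG cells FAR1 had a log2 difference of -0.03 (edgeR adjusted p 0.799).

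FAT1 had 313, 186 and 373 CPM with ASO-1570 at 200 nM in MDA-MB-231 cells, against 464, 533 and 438 CPM with control ASO, a log2 difference of -0.72. In the other 3 cell line comparisons its groups overlapped, at -0.06 to 0.19. DCK averaged 39.1 ± 2.26 CPM with 200 nM ASO-1570 and 55.2 ± 2.09 CPM with control ASO in U87MG cells, and 51.4 ± 4.57 against 73.9 ± 2.01 CPM at 50 nM (SD, n = 3 each). In MDA-MB-231 cells the DCK groups overlapped at both doses. DCK shares 29912 bases with MOB1B on the same strand, so its counts are uncertain.

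CNN3 was higher with ASO-1570 in U87MG cells and overlapped with its controls in MDA-MB-231 cells. It averaged 445 ± 37.6 CPM with 200 nM ASO-1570 and 477 ± 17.4 CPM with control ASO in MDA-MB-231 cells, and 42.1 ± 1.68 against 32.2 ± 1.73 CPM in U87MG cells. NAP1L4 averaged 165 ± 1.76 against 170 ± 2.01 CPM in MDA-MB-231 cells and 166 ± 10 against 186 ± 1.3 CPM in U87MG cells. The NAP1L4 difference in MDA-MB-231 cells turned to 0.05 on the log2 scale without TMM scaling. With siRNA neither passed in either line (edgeR adjusted p 0.431 to 1).

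Counted together, 4 of the 6 genes did not overlap between groups at 200 nM in MDA-MB-231 cells, where 39.3% of all genes did not, and 5 of 6 in U87MG cells, where 66.5% did not. At 50 nM the counts were 2 in MDA-MB-231 cells against 41.2% of all genes and 5 in U87MG cells against 62.0%. With siRNA, 2 of 6 did not overlap in MDA-MB-231 cells against 27.1% of all genes, and 1 in U87MG cells against 23.6%. The line difference in the siRNA effect was called for 122 genes, or 0.527%, and for none of the 6; FAR1 had the lowest adjusted p among them, 0.189, at a log2 difference of 0.22 (edgeR). In the PDX tumours 0 of the 6 stood apart, where 0.617% of all genes did.

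**Figure D4:**
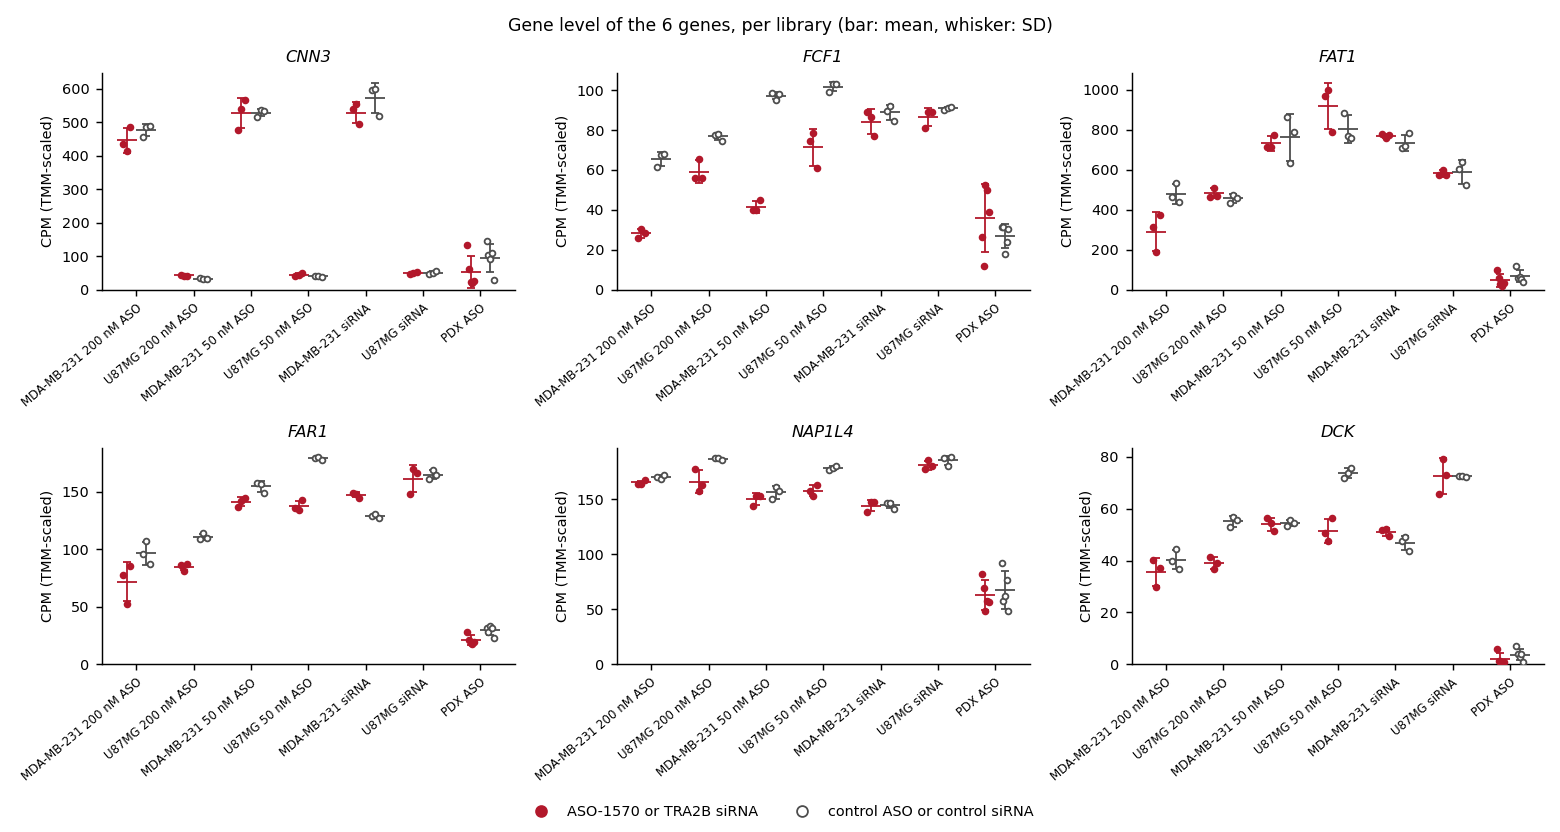
Level of the 6 genes in CPM (scaled by TMM factors, linear axes) with ASO-1570 or TRA2B siRNA as filled points left of control ASO or control siRNA as open points; each point is a library, bars are means and whiskers SDs. FCF1 in MDA-MB-231 cells averages 28.2 with 200 nM ASO-1570 against 65.5 with control ASO, while its siRNA groups average 84.3 and 88.8.

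The PDX tumours need a caution on the makeup of their RNA. Mitochondrial genes took 52.92% ± 21.73 of the counts with ASO-1570 and 33.23% ± 13.65 with control ASO (SD, n = 5 each), with a range of 17.65% to 75.31% over all 10 tumours. With mitochondrial genes left out of the library sizes, 28 gene level differences with ASO-1570, cell lines and PDX together, stayed within their spread and 2 moved. Beyond that run, the part of mitochondrial genes in the PDX levels was not tested. CNN3 averaged 52.3 ± 47.6 CPM with ASO-1570 and 95.1 ± 41.8 CPM with control ASO, and FAR1 20.8 ± 4.44 against 29.6 ± 4.02 CPM, with overlapping groups. In such bulk samples, fewer cells of a type and less RNA per cell cannot be told apart. The mean log2 TMM factor of the PDX groups differed by -0.68, ASO-1570 minus control ASO. Without TMM scaling the FCF1 difference of 0.41 on the log2 scale turned to -0.38.

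The pathways of the 6 genes were followed through 37 related genes. With TRA2B siRNA, 4 rose and 1 fell in MDA-MB-231 cells, and 0 rose and 1 fell in U87MG cells, where 7.24% and 4.20% of all genes were called. By direction the shares of all genes were 3.65% higher and 3.60% lower in MDA-MB-231 cells, and 1.60% higher and 2.60% lower in U87MG cells. UTP23, a PIN-domain relative of FCF1 in the same 18S processing machinery, fell to 25.3 ± 0.173 CPM with TRA2B siRNA against 31.4 ± 1.62 CPM with control siRNA in MDA-MB-231 cells (edgeR adjusted p 0.00198). In U87MG cells it fell to 36.5 ± 1.74 against 45.6 ± 0.773 CPM (SD, n = 3 each; edgeR adjusted p 0.00365). The log2 difference was -0.32 in each line.

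In MDA-MB-231 cells the cadherins FAT2 and DCHS1 rose with TRA2B siRNA, both at low levels. FAT2 averaged 0.654 ± 0.104 CPM against 0.304 ± 0.0209 CPM (edgeR adjusted p 0.000751) and DCHS1 0.963 ± 0.0565 against 0.645 ± 0.0449 CPM (edgeR adjusted p 0.0216). The DCHS1 call was lost when any of 5 of the 6 libraries was left out (edgeR adjusted p 0.0516 to 0.0806) and with no filter on low counts (0.0545). The histone chaperones NAP1L1 and NAP1L5 rose as well. NAP1L1 averaged 953 ± 49.1 CPM with TRA2B siRNA and 803 ± 36.2 CPM with control siRNA (edgeR adjusted p 0.0139), and NAP1L5 2.52 ± 0.17 against 1.74 ± 0.16 CPM (edgeR adjusted p 0.00179). The NAP1L1 call was lost without replicate 1 or replicate 2 of TRA2B siRNA (edgeR adjusted p 0.079 and 0.0617), and the UTP23, FAT2 and NAP1L5 calls held under each alternative run.

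With ASO-1570 in the cell lines, the deoxynucleoside salvage genes had the lowest median of the 6 families. Of its 7 genes 6 were called lower and 0 higher in U87MG cells at 200 nM, with a median log2 difference of -0.72 against 0.02 over all genes. In MDA-MB-231 cells 4 were lower and 1 higher, with a median of -0.53 against 0. At 50 nM the medians were -0.65 in U87MG and -0.47 in MDA-MB-231 cells. Of the 5 ether lipid genes 3 were lower and 0 higher in U87MG cells and 2 lower and 0 higher in MDA-MB-231 cells at 200 nM. Of the 5 NAP1 chaperone genes 2 were lower and 0 higher in each line. The 10 genes of 18S processing split, with 3 lower and 4 higher in U87MG cells and 2 lower and 1 higher in MDA-MB-231 cells. Of the 6 FAT and Dachsous cadherins 1 was lower and 1 higher in U87MG cells and 2 were lower and 0 higher in MDA-MB-231 cells. Of the 4 calponin relatives 2 were lower and 1 higher in U87MG cells and 0 lower and 1 higher in MDA-MB-231 cells. Over all 37 relatives at 200 nM, 17 were called lower and 6 higher in U87MG cells, and 12 lower and 3 higher in MDA-MB-231 cells. The share of all genes called was 49.7% in U87MG cells, 23.9% lower and 25.8% higher, and 25.2% in MDA-MB-231 cells, 13.6% lower and 11.7% higher. Without TMM scaling the log2 differences shift upwards by about 0.14 in U87MG and 0.09 in MDA-MB-231 cells at 200 nM. The salvage, ether lipid and NAP1 chaperone medians then stay below 0. In the PDX tumours the salvage median was -0.15 against 0.01 over all genes. The lowest family median there was -0.6, in the FAT and Dachsous cadherins.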

How the data were processed

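RNA was sequenced from 46 samples as stranded paired-end reads of 151 bases, per the labels' protocols. FastQC, MultiQC, Trimmomatic, STAR and StringTie and the build GRCh38 (hg38) are named in the submitters' processing notes, without versions or roles. The PSI tables carry the name rMATS in the labels; its version and settings are not given in the sources used here. The authors deposited 2 kinds of values per experiment: raw gene counts over 60668 gene IDs, of which 60340 matched a symbol, and PSI, a fraction from 0 to 1 per event and library. The DCK exon sequence is not reported here. No read number stands behind a deposited PSI, so its depth is unknown. Tables of the experiments were deposited separately and tests were run within a table; 2 pooled copies identical to the 200 nM tables were not used.

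The genes and all lists were chosen with earlier results of these data known. The lead event and the named events followed a written rule on the ASO-1570 differences, which took in 38 events, not all described singly. Named after their values were seen were the events given for comparison with a lead event, the NAP1L4 exon of 84 bases, the FAR1 event of mutually exclusive exons and the NAP1L4 exon of 98 bases. PSI with siRNA was tested with limma 3.58.1 with a trend, over all events with a value in each library fitted and a PSI range of 0.05 or more. Calls needed a Benjamini-Hochberg adjusted p below 0.05 and a mean difference of 0.10 or more. Counts were tested with edgeR 4.0.16 (filterByExpr, TMM, quasi-likelihood) with all groups of a table in 1 fit. Single values used exact two-sided permutation tests. DESeq2 1.42.0, other scalings, filters and scales, and leaving out each library were the alternatives. The fits were tested on simulated data.

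Same-numbered treated and control libraries were compared by their deviations from the group mean in log2 gene level, over the more highly expressed genes. The correlations of these deviations were 0.3, 0.1 and 0.2 in the U87MG siRNA experiment and 0.13, 0.18 and 0.08 in U87MG cells at 200 nM. In both, all 3 treated libraries were closest to the control of their own number. In U87MG cells at 50 nM the correlations were 0.15, 0.12 and 0.3, and 2 were closest to their own number. In the MDA-MB-231 comparisons and the PDX some correlations were below 0, although PDX replicates 1 and 5 had 0.83 and 0.61. The labels do not say what a number shares.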

Additional observations from a re-analysis of the deposited data

Results flagged for a closer look

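In the PDX groups of 5, 3 values lay far from the other libraries of their group by the ratio of the gap to the range, against a critical value of 0.71. The FCF1 extension of 59 bases had a PSI of 0.518 in an ASO-1570 tumour (ratio 1.0). The FAR1 exon of 128 bases had a PSI of 0.94 in a control ASO tumour (ratio 1.0). DCK had 5.98 CPM in an ASO-1570 tumour (ratio 0.855). Of the groups examined, 3 were PSI groups, taken only where the PSI range was 0.05 or more, and 12 were gene level groups. A ratio of 1.0 means that the other libraries of the group had equal values. In such a group any value apart from them is flagged by construction. The rate of flags by chance was not worked out.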

How the results depend on the processing

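Counts of PSI calls with siRNA depended on the fit. In MDA-MB-231 cells, 0 events became 4 with no filter on the range, 29 with missing values allowed, 162 with all 12 libraries in 1 fit and 3 to 11 with a library left out. In U87MG cells, 0 became 1, 53, 164 and 3 to 12 under the same settings, and 6 on a logit scale. The 314 events of the average became 0 with the replicate block and 200 to 268 with a library left out. The 3 events of the line difference became 10 on a logit scale, 0 with the replicate block, 20 with missing values allowed and 0 to 17 with a library left out. Gene calls with siRNA fell to 982 in MDA-MB-231 cells, 481 in U87MG cells and 27 for the line difference with no filter on low counts. With a library left out they were 796 to 1408, 476 to 779 and 26 to 92. DESeq2 called 1700 genes in U87MG cells and 401 for the line difference. The replicate block moved the gene counts to 2077, 1262 and 110. The cause of these shifts was not tested; fewer libraries and other numbers of features tested enter some of them by construction.

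Member events past the rule with ASO-1570 ranged from 21 to 25 and 43 to 49 at 200 nM and from 16 to 21 and 33 to 40 at 50 nM in MDA-MB-231 and U87MG cells when a library was left out, and from 0 to 1 in the PDX. Turned values were few. The NAP1L4 lead difference in MDA-MB-231 cells at 200 nM was -0.126 and ranged from -0.253 to 0.014 with a library left out, turning without replicate 3 of ASO-1570. The average siRNA difference of that exon ranged from -0.095 to 0.018, turning to 0.001, 0.018 and 0.007, and its U87MG difference to -0.019 with a library left out. The line difference of the FCF1 extension of 59 bases ranged from -0.306 to 0.085, turning to 0.085 and 0.072. FAT1 in U87MG cells at 200 nM ranged from -0.02 to 0.1 on the log2 scale, turning without replicate 3 of control ASO, and NAP1L4 in MDA-MB-231 cells to 0.05 without TMM. The mean log2 TMM factors of the groups compared differed by 0.14 in U87MG cells with ASO-1570 at either dose. In the other cell line comparisons they differed by 0.09 or less. The unknown depth behind each PSI limits all events, those at exactly 0 or 1 most.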
